A study of Rattus norvegicus with 23 samples.

Results

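A set of 10 genes of insulin, leptin and energy sensing was followed in the blood cells of weanling rats whose mothers had or had not been restricted in calories while they suckled them. The genes were the insulin receptor Insr, the IGF receptors Igf1r and Igf2r, the leptin receptor Lepr, the adaptor Irs2, the kinases Akt1 and Akt2, the S6 kinase gene Rps6kb1, the translation repressor Eif4ebp1 and the AMPK catalytic subunit Prkaa1. Members were the array probes that the scanner files name for these 10 genes, 14 probes of the 41012 that are not controls. Of the 10 genes, 9 had a probe above background and were among the 20506 features tested. Lepr was not, and it is given below by its intensities alone.

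The material was RNA of peripheral blood mononuclear cells (PBMC, the lymphocytes and monocytes of blood) from male and female Wistar pups aged 21 days, killed while fed freely. Control dams ate chow freely. Restricted dams (CR) received 20% fewer calories from the day after delivery until weaning. Of the males 6 were control and 5 CR, and of the females 6 were control and 6 CR, with 1 pup per array, and none carried a transgene or a drug. The pups of CR dams came from at most 5 litters (control, at most 11), and the labels do not tie a pup to a litter. Pups were therefore treated as independent, and p-values and intervals may be too small.

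Each array set a pup's RNA, in the red dye Cy5, against a pool of all samples in the green dye Cy3, without a dye swap. A gene's value is the log2 ratio of the pup to the pool, so 0 is the level of the pool and a difference of 1 is a 2-fold change. Per array, 20603 to 24076 probes were well above background, with a median Cy5 intensity of 55.6 to 65.8 over a local background of 27 to 30, and the number of arrays limits the precision. T cell markers were present as labelled: all 13 that were on the array (of a list of 14) lay above background on every array, as did all 11 of the B cell markers on it. Of the monocyte markers on it, 7 of 11 lay above background on every array. Of the red cell, platelet and neutrophil markers on it, 9 of 9, 7 of 8 and 6 of 11 did so. The mean red cell marker ratio ran from -2.08 to 2.05 between pups, and the part of such cells in any result was not tested. Of the 23 arrays, CR female replicate 5 and CR male replicate 1 had the lowest mean correlations with the others (0.096 and 0.178). In bulk RNA, fewer cells of a type and less RNA per cell cannot be told apart.

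Insulin and the IGFs bind receptor tyrosine kinases that recruit adaptors such as the IRS proteins. These activate PI3 kinase and then AKT, which keeps the FOXO transcription factors out of the nucleus and turns on the kinase complex mTORC1. mTORC1 speeds translation through S6 kinase and by releasing the brake of 4E-BP proteins, while AMPK, active when cellular energy is low, restrains it. Leptin, the hormone of fat stores, signals through a cytokine receptor and STAT3. In lymphocytes this network sets growth, nutrient uptake and homing, and lymphocytes and monocytes can carry insulin and leptin receptors.

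The 3 upstream sequences are shown because they belong to the member with the smallest diet p (Akt1), to the member whose male and female differences lay farthest apart by p (Igf2r), and to a gene known as a target of the FOXO factors that insulin switches off (Insr). They are the 250 bases before the annotated start from the RefSeq promoter table (assembly GRCr8), 5′ to 3′ on the gene's strand. Insr lies at chr12:6128804-6129053 (minus strand), Igf2r at chr1:50526628-50526877 (plus strand) and Akt1 at chr6:137552611-137552860 (minus strand). Capitals mark GTAAACA (the core of a forkhead site, as bound by FOXO) and CACGTG (an E-box, the core of the sites bound by TFEB and MYC), searched on both strands.
Insr: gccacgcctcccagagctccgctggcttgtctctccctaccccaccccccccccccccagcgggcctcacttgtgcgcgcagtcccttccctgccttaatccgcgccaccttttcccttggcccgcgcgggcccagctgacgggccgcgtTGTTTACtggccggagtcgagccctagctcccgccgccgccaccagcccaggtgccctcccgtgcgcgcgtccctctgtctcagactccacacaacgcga
Igf2r: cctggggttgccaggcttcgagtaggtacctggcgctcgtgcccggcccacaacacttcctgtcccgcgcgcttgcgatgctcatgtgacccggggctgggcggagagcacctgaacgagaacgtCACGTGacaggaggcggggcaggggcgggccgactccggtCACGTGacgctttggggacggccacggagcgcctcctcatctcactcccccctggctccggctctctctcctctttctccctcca
Akt1: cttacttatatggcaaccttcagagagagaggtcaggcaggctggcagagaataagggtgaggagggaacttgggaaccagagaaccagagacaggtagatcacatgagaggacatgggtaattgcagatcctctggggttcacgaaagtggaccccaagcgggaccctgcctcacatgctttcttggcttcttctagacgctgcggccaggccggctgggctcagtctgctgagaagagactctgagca
The Insr window held 1 forkhead match, in its reverse complement, and 3.21% of 33469 promoter windows held one. The Igf2r window held 2 E-box matches, and 5.59% of windows held at least 1. The Akt1 window held neither string. The GC content was 71.2% for Insr, 68.0% for Igf2r and 54.8% for Akt1, against a median of 51.2% over all windows. The shares over all windows are not adjusted for it. Of the 10 members 8 were matched in the table, and Igf1r was the only other one with either string (1 E-box). These are matches of letters, and no binding was measured.

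No member passed the test for a diet difference. In CR against control males limma called 0 of 9 members and 0 of 20506 features (0%, lowest adjusted p 0.224). An unadjusted p under 0.05 was reached by 0 members and by 7.13% of features (1462). Under median centring, which put the median of all features in males at -0.19, that level was reached by 5 members (Akt1, Akt2, Igf2r, Rps6kb1 and Eif4ebp1) and by 6464 features, with 0 called. In females it again called 0 of 9 members and 0% of features (lowest adjusted p 0.994), with 0 members and 4.65% of features (954) at an unadjusted p under 0.05. In the mean of the sexes it called 0 of 9 members and 0% of features (lowest adjusted p 0.196). Akt1 alone of the 9 members reached an unadjusted p under 0.05 there, in the direction of a lower level in CR pups, as did 7.32% of features in either direction (1501) and 4.88% in that one. For the difference between the male and female diet effects it called 0 members and 0% of features (lowest adjusted p 0.927, 956 features at an unadjusted p under 0.05). In every member the CR and control pups overlapped in both sexes, as in the plot of values by pup. The share of all features whose groups overlap is not given here, so this does not set the members apart.

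**Figure D1:**
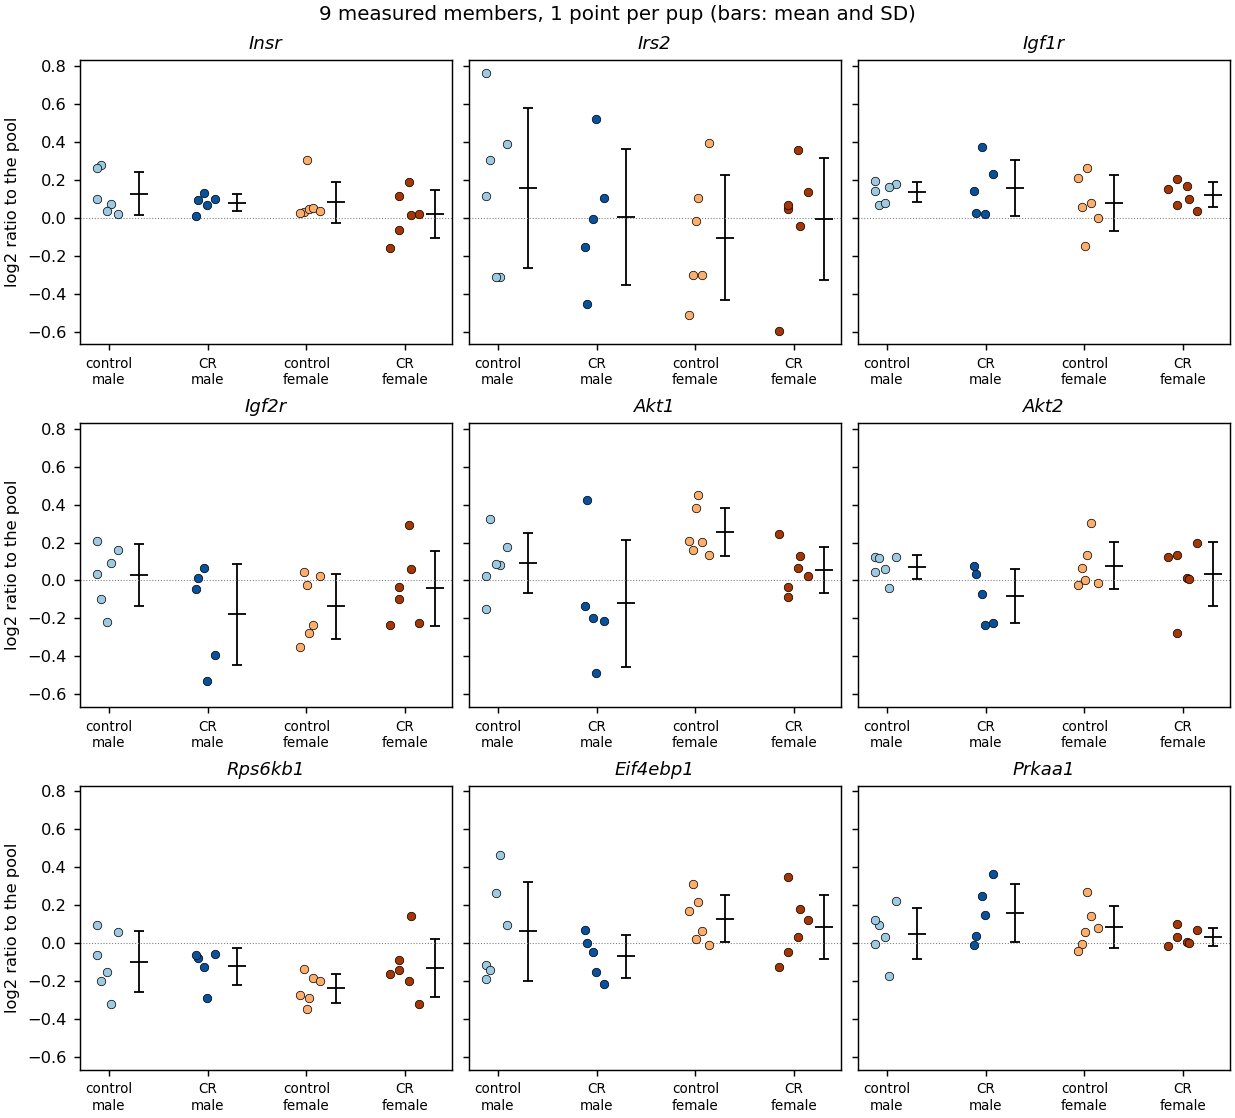
Log2 ratio of each pup to the pool (y axis) for the 9 measured members, 1 panel per gene, with pups in 4 groups (males, 6 control and 5 CR; females, 6 of each). Points are pups and bars the mean and SD. Irs2 spreads from -0.60 to 0.76, Igf1r only from -0.15 to 0.37, and the diet groups overlap in every panel.

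Among the receptors, Insr, which binds insulin at the cell surface, was near the background. Its probe (NM_017071, rn4 chr12:3087143-3087201) was well above background on 13 of 23 arrays, with a median Cy5 intensity of 54.4 over a background of 29. Its log2 ratio in the CR males was 0.07, 0.10, 0.10, 0.01 and 0.13, against 0.02, 0.09 and 0.28 (lowest, median, highest) in control males. In females the lowest, median and highest were 0.03, 0.04 and 0.30 in controls and -0.16, 0.02 and 0.19 in CR pups. CR males lay inside the control range apart from 1 just under it, and 4 of 6 CR females lay below all control females, of which 1 stood high. The difference was -0.05 ± 0.07 (SE) in males and -0.06 ± 0.06 in females, and -0.06 ± 0.05 in their mean (limma, adjusted p 0.857). With the scanner software's own ratio in place of the corrected one, the female difference of this dim probe was -0.78 (limma, unadjusted p 0.0486, adjusted p 0.838).

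Igf1r, the receptor for IGF1 and a close relative of Insr, was above background on all 23 arrays and spotted 10 times on each (NM_052807, rn4 chr1:122989150-122989209). The CR males were at 0.02, 0.02, 0.23, 0.14 and 0.37, and control males at 0.06, 0.15 and 0.19 (lowest, median, highest). Control females had -0.15, 0.07 and 0.26, and CR females 0.04, 0.12 and 0.21. The group medians lay within 0.07 to 0.15, and of the CR males 2 were above and 2 below all control males. The difference was 0.02 ± 0.07 (SE) in males, 0.05 ± 0.07 in females and 0.03 ± 0.05 in their mean, with a 95% interval of -0.07 to 0.13. The sign in males rested on 1 pup: it was -0.03 without CR male replicate 5.

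Igf2r, which clears IGF2 and carries mannose 6-phosphate tagged enzymes to the lysosome, gave differences of opposite sign in the sexes. Its probe (NM_012756, rn4 chr1:42340766-42340825) was bright, with a median Cy5 intensity of 2490. The CR males were at -0.53, 0.01, -0.39, -0.04 and 0.06, against -0.22, 0.06 and 0.21 (lowest, median, highest) in control males. Control females were at -0.35, -0.13 and 0.05 and CR females at -0.24, -0.07 and 0.29. CR males fell into 2 low pups and 3 within the control range, while 2 CR females were above all control females. The difference was -0.21 ± 0.12 (SE, unadjusted p 0.0869, limma) in males and 0.09 ± 0.11 in females. The difference between them, -0.30 ± 0.16, did not pass (limma, unadjusted p 0.0724, adjusted p 0.938), and 4.66% of features reached an unadjusted p under 0.05 in that contrast. Without CR male replicate 1 the male difference was -0.12, and without CR male replicate 5 it was -0.27. In males the unadjusted p (limma) fell under 0.05 without CR male replicate 2 or 5 or control male replicate 6. It did so too with Cy5 alone and under median centring. For the difference between the sexes it did so without CR male replicate 2 or 5, CR female replicate 4 or control male replicate 6, and under median centring. None passed adjustment.

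Lepr, the leptin receptor, was not well above background in any pup. Its probe (NM_012596, rn4 chr5:122469444-122470551, a design span longer than the probe) was spotted 10 times per array and was well above background on 0 of 23 arrays. Its median Cy5 intensity was 40.4 over a background of 31.0, with arrays between 37.5 and 45.5. Its log2 ratio stayed between -0.10 and 0.02 and was not tested. Transcripts of the gene that lack the probed stretch were not measured.

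Irs2, the adaptor that links both receptors to PI3 kinase and that FOXO factors induce in fasting, was the most variable member. Its brightest probe (XM_573948, rn4 chr16:83403814-83403873) had a residual SD between pups of a group of 0.36, larger than in 94.7% of features and above the median of 0.14. The CR males were at 0.52, -0.45, 0.11, -0.15 and -0.01, and control males at -0.31, 0.21 and 0.76 (lowest, median, highest). Control females were at -0.51, -0.16 and 0.40 and CR females at -0.60, 0.06 and 0.36. All 4 groups thus held both high and low pups, and littermates could not be told from the labels. The difference was -0.16 ± 0.20 (SE) in males, 0.10 ± 0.19 in females and -0.03 ± 0.14 in their mean (limma, adjusted p 0.985). Its 95% interval, a CR to control ratio of 0.802 to 1.20, was the widest of the members.

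The 3 other probes of Irs2 lay in a transcript model about 20 kb away (ENSRNOT00000032918, rn4 chr16:83381868-83383334) and were dim, with median Cy5 intensities of 59.5 to 71.2. Probe A_44_P257518 varied with the bright one between pups of a group (Pearson's r 0.69, Spearman's rho 0.73 over 23 arrays, permutation adjusted p 0.0049 and 0.0021 over 7 probe pairs). The r was 0.58 without the 2 arrays farthest from the median and 0.69 with slides removed. For A_44_P503503 the r with the bright probe was 0.13. For A_44_P400393 it was 0.53 (rho 0.48, permutation adjusted p 0.050 and 0.084, r 0.41 without the 2 farthest arrays and 0.59 with slides removed). In females these 3 probes gave -0.06, -0.04 and -0.10 against 0.10 for the bright one, so the sign of the Irs2 difference depends on the probe. The 2 probes of Eif4ebp1, which lie close together in 1 transcript, had an r of 0.80 (rho 0.78, permutation adjusted p 0.00049).

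**Figure D2:**
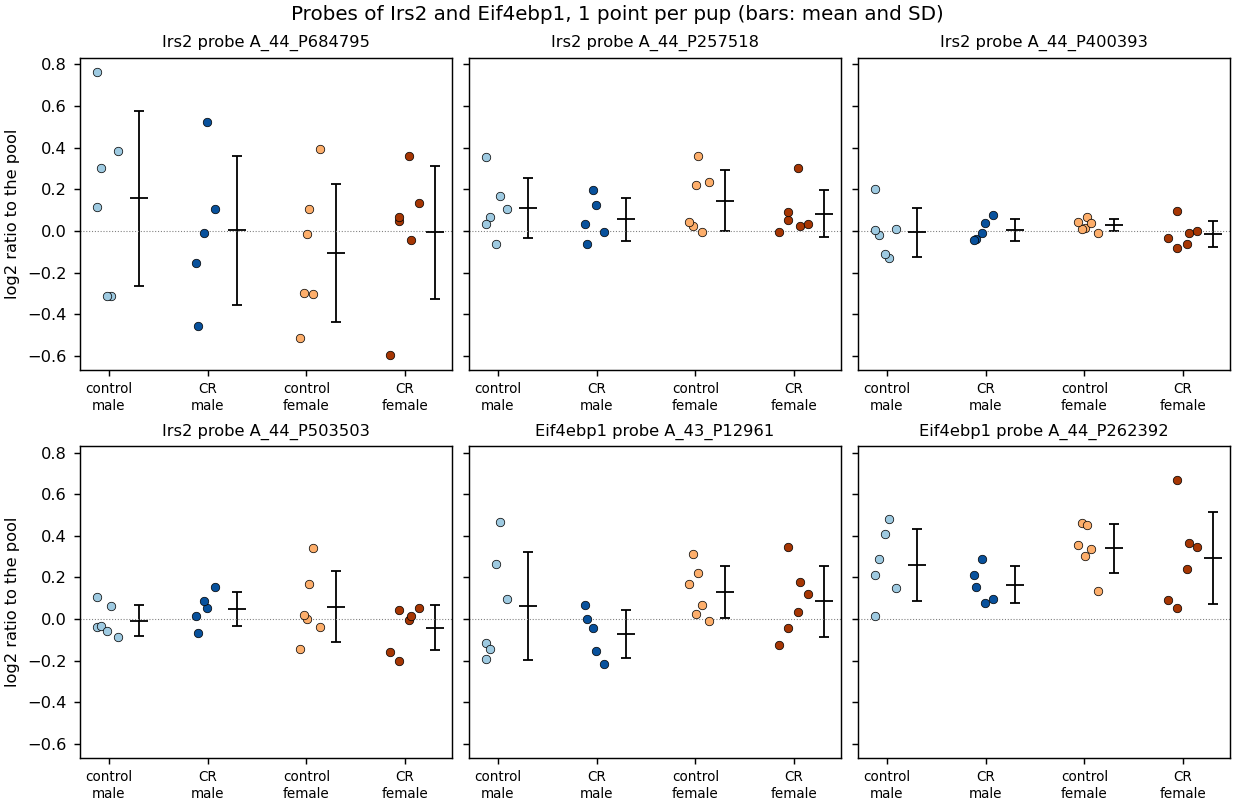
Log2 ratio of each pup to the pool (y axis) for the 4 probes of Irs2 and the 2 of Eif4ebp1, pups in 4 groups, with mean and SD. The bright Irs2 probe A_44_P684795 spreads over -0.60 to 0.76, the dim ones stay between -0.20 and 0.36, and the Eif4ebp1 probes show the same order of group means.

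Akt1, the AKT kinase of growth and survival in most tissues, had a lower mean in CR pups of both sexes, a difference that did not pass the adjusted test. Its probe (NM_033230, rn4 chr6:137641146-137641205) was spotted 10 times on each array, with a pooled SD between spots of 0.06 against 0.19 between pups of a group. The CR males were at -0.49, 0.42, -0.21, -0.13 and -0.20, and control males at -0.15, 0.08 and 0.32 (lowest, median, highest). Control females were at 0.13, 0.20 and 0.45, and CR females at -0.09, 0.04 and 0.25. In males 4 of 5 CR pups lay below the control mean, and the exception was the highest male of all. In females 6 of 6 lay below it, 5 of them below every control. The difference was -0.21 ± 0.11 (SE, limma, unadjusted p 0.0742, adjusted p 0.725) in males and -0.20 ± 0.11 (unadjusted p 0.0769, adjusted p 0.994) in females. Their mean was -0.21 ± 0.08, a CR to control ratio of 0.775 to 0.970 (95% interval), with an unadjusted p of 0.0150 and an adjusted p of 0.589. As small a p was reached by 2.50% of all features. Without CR male replicate 2 the mean was -0.27 (limma, adjusted p 0.0695) and the male difference -0.35, and without CR male replicate 1, which stands apart from the other arrays, they were -0.16 and -0.12.

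Comparing the same pups within slides, which adds no independent data, gave a similar picture for Akt1. Within slides its CR pups were lower on 3 of 4 slides in males, from -0.66 to 0.34, and on 5 of 6 in females, from -0.49 to 0.04. For Igf2r, CR males were lower on 3 of 4 slides and CR females on 2 of 6. For the other members CR males were lower on 4 of 4 slides (Eif4ebp1), 3 (Akt2), 2 (Irs2, Igf1r and Rps6kb1) or 1 (Insr and Prkaa1). Their CR females were lower on 5 of 6 slides (Insr), 4 (Prkaa1), 3 (Irs2, Akt2 and Eif4ebp1), 2 (Igf1r) or 1 (Rps6kb1). With slides as a block Akt1 kept an unadjusted p under 0.05 for the mean of the sexes, with no member called. Without the 2 arrays that stand apart its difference was -0.16, with an unadjusted p of 0.0535 (limma), above 0.05.

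**Figure D3:**
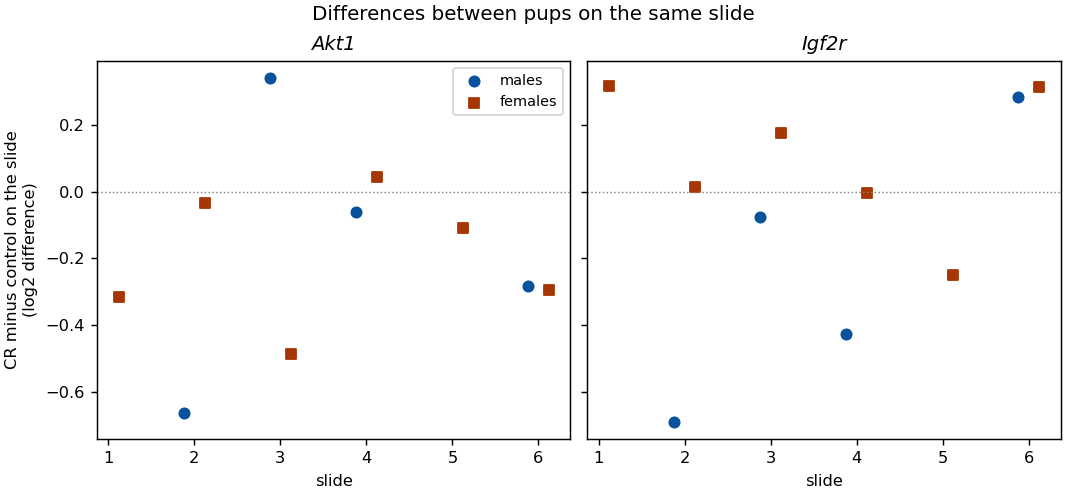
CR minus control log2 difference between pups of 1 sex on the same slide (y axis) by slide (x axis) for Akt1 and Igf2r, where circles are males (4 slides) and squares females (6 slides). For Akt1, 8 of 10 points lie below 0; for Igf2r the males lie lower than the females on all 4 slides that hold both.

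B cell markers also had lower means in CR pups, and they are given beside Akt1 for that reason. They were not alone: plasma cell and platelet marker means were lower in CR pups of both sexes too, and neutrophil marker means were higher. The mean ratio of 11 B cell genes was 0.20 ± 0.24 (SD, n = 6) in control males and -0.19 ± 0.26 (n = 5) in CR males, and 0.28 ± 0.29 and 0.03 ± 0.18 (n = 6 each) in females. Between pups of a group the correlation of Akt1 with that mean was near 0 (Pearson's r 0.06, r 0.11 without the 2 arrays farthest from the median and with slides removed, Spearman's rho -0.0049, permutation adjusted p 0.851 and 0.985 over 81 relations). Its largest r with a marker list was that with monocyte genes (r 0.64, rho 0.58, permutation adjusted p 0.145 and 0.153, r 0.47 without the 2 arrays farthest from the median and 0.57 with slides removed). With neutrophil genes the r was 0.18, and 0.64 with slides removed. The neutrophil mean was -0.18 ± 0.31 and 0.11 ± 0.19 in control and CR males and 0.01 ± 0.25 and 0.23 ± 0.47 in females. The monocyte mean was -0.04 ± 0.14 and 0.09 ± 0.33 in control and CR males and 0.28 ± 0.25 and 0.06 ± 0.21 in females. The part of cell composition in the Akt1 difference was not tested.

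Akt2, the AKT form of insulin-stimulated glucose uptake, leaned the same way with less spread (NM_017093, rn4 chr1:82725226-82725285). The CR males were at -0.23, 0.04, -0.22, 0.08 and -0.07, and control males at -0.04, 0.09 and 0.12 (lowest, median, highest). Control females were at -0.02, 0.03 and 0.30 and CR females at -0.28, 0.07 and 0.20. In males 3 CR pups were below every control, and in females 1 was. The difference was -0.15 ± 0.08 (SE, limma, unadjusted p 0.0663, adjusted p 0.718) in males, -0.04 ± 0.08 in females and -0.10 ± 0.05 in their mean (unadjusted p 0.0854, adjusted p 0.754). On control male replicate 2 its spot was bright in Cy5 (1963 against a median of 165), while its ratio there, 0.12, was within the range of that group. Between pups of a group Akt2 varied most with T cell markers (r 0.67, rho 0.54, permutation adjusted p 0.066 and 0.206, r 0.47 without the 2 farthest arrays and 0.64 with slides removed).

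Downstream of mTORC1, Rps6kb1 encodes S6 kinase, which phosphorylates ribosomal protein S6, and Eif4ebp1 encodes the repressor that mTORC1 releases from the cap-binding protein. Rps6kb1 (NM_031985, rn4 chr10:76657063-76657122) was at -0.29, -0.08, -0.06, -0.06 and -0.13 in CR males and at -0.32, -0.11 and 0.10 (lowest, median, highest) in control males. It was at -0.35, -0.24 and -0.14 in control females and at -0.32, -0.15 and 0.14 in CR females. CR males fell inside the control range, and CR females lay higher, with 5 of 6 above the control mean. The difference was -0.03 ± 0.08 (SE) in males and 0.11 ± 0.07 in females (limma, unadjusted p 0.153, adjusted p 0.994), and 0.04 ± 0.05 in their mean.

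Eif4ebp1 (NM_053857, brighter probe rn4 chr16:69110542-69110601) was at -0.15, -0.0013, -0.22, 0.07 and -0.04 in CR males against -0.19, -0.01 and 0.46 in control males. It was at -0.01, 0.12 and 0.31 in control females and at -0.13, 0.08 and 0.35 in CR females. Of the control males 3 were above all CR males, and in females the groups covered much the same range. The difference was -0.13 ± 0.10 (SE) in males, -0.04 ± 0.10 in females and -0.09 ± 0.07 in their mean (limma, adjusted p 0.858). The other probe gave -0.09 ± 0.10 and -0.05 ± 0.09 in males and females.

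Prkaa1, a catalytic subunit of AMPK, the kinase active when cellular energy is low, was the 1 member of the energy-sensing arm itself (NM_019142, rn4 chr2:54358841-54358900). The CR males were at 0.15, 0.04, 0.36, -0.01 and 0.25, and control males at -0.17, 0.06 and 0.22 (lowest, median, highest). Control females were at -0.04, 0.07 and 0.27 and CR females at -0.01, 0.02 and 0.10. Of the CR males 2 were above all control males, and in females 5 of 6 CR pups were below the control mean. The difference was 0.11 ± 0.07 (SE) in males and -0.05 ± 0.07 in females, and the difference between these was 0.16 ± 0.10 (limma, unadjusted p 0.118, adjusted p 0.938). Their mean was 0.03 ± 0.05.

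**Figure D4:**
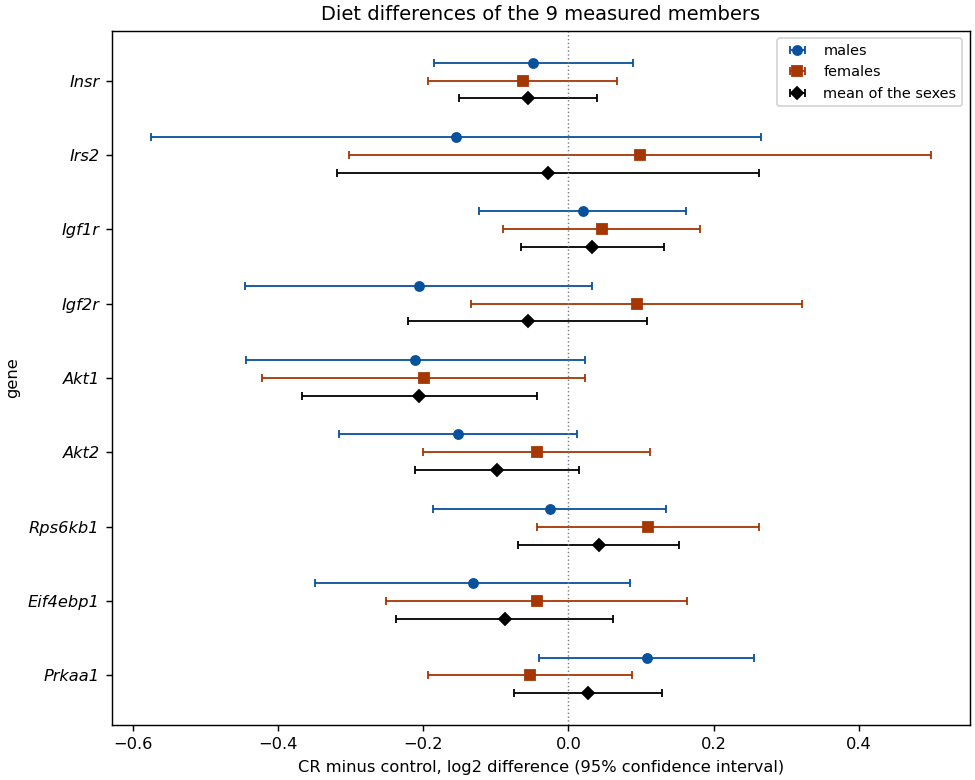
CR minus control log2 difference (x axis) with its 95% confidence interval from limma for the 9 measured members, in males (circles), females (squares) and the mean of the sexes (diamonds). Every interval includes 0 except that of Akt1 in the mean of the sexes, -0.37 to -0.04, and no adjusted p passes.

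Between the sexes, averaged over diets, limma called 12 of 20506 features (0.0585%) and 0 of the 9 members. Akt1 was lower in males by the group means, 0.09 and -0.12 in control and CR males against 0.26 and 0.06 in females. That difference was -0.17 ± 0.08 (SE, limma, unadjusted p 0.0385, adjusted p 0.669), where 7.43% of features reached an unadjusted p under 0.05, and 3.76% did so with a lower level in males. Its p was above 0.05 with the scanner's ratio, median centring, Cy5 alone and the deposited table, without the 2 arrays that stand apart, and in several of the fits that leave out 1 array. The other 8 members had differences between the sexes of -0.11 (Eif4ebp1) to 0.14 (Irs2).

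The wider pathway was read from 8 lists of 156 genes, 127 of them tested. Averaged over the sexes 0 of the 127 were called, 4 reached an unadjusted p under 0.05 with a higher level in CR pups and 9 with a lower one, beside 501 and 1000 of all 20506 features. Their median difference was -0.0034, against 0.0013 for all features.

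Of the receptors and adaptors, 12 were tested, none reached an unadjusted p under 0.05 in the mean of the sexes, and the median was -0.05. The smallest p belonged to Shc1 (-0.16 ± 0.10, SE), an adaptor to RAS, and Sos2 (-0.12 ± 0.07), a RAS exchange factor. Among 8 ligands and binding proteins, 2 reached it, both higher: Igfbp1, the insulin-regulated IGF binding protein (0.12 ± 0.04), and Igfals, which stabilises circulating IGF complexes (0.09 ± 0.04). Of 21 genes of PI3 kinase, AKT and FOXO, 3 reached it, all lower: Akt1 itself, Pik3r2, a regulatory subunit of PI3 kinase (-0.20 ± 0.08), and Inpp5d, the lipid phosphatase SHIP of blood cells (-0.19 ± 0.08). None of these passed adjustment (limma, adjusted p 0.588 to 0.794). Intensities are given here for the probes of the members only, so not for Igfbp1 and Igfals. The filter also kept probes that, like that of Insr, were well above background on only part of the arrays. Whether the small differences of Igfbp1 and Igfals reflect transcripts of blood cells was therefore not tested.

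Of 36 genes of the mTOR complexes and their outputs, 2 reached an unadjusted p under 0.05, both lower in CR pups. They were Tfeb, the lysosomal transcription factor that mTORC1 holds in the cytoplasm (-0.17 ± 0.07, SE), and the elongation factor Eef2 (-0.26 ± 0.11). Eef2 had no value for control female replicate 2, CR female replicate 2 and control male replicate 3. In the AMPK list 1 of 17 reached that level, the regulatory subunit Prkag1 (-0.17 ± 0.08), followed by Acaca, the acetyl-CoA carboxylase that AMPK inhibits (-0.11 ± 0.07). By sign, 11 of the 17 AMPK genes were higher in CR males (median 0.031), beside 9668 of 20506 features. In CR females 15 of 17 were lower (median -0.053), beside 9913 features. In each sex alone 0 of the 17 had an unadjusted p under 0.05. For the difference between the male and female diet effects 1 had an unadjusted p under 0.05, beside 956 features. Of 15 genes of leptin receptor and JAK-STAT signalling, 1 was higher at that level, Leprotl1 (0.13 ± 0.06, named after its value was seen), and 2 were lower, the phosphatase Ptpn6 (-0.28 ± 0.10) and the adaptor Sh2b1 (-0.29 ± 0.10), which binds JAK2.

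Of the genes that FOXO1 supports in lymphocytes, 7 were tested. In the mean of the sexes 5 were higher in CR pups and 2 lower, with a median of 0.045. An unadjusted p under 0.05 was reached by 1 with a higher level and by 1 with a lower one. In males alone 2 reached it, both higher, beside 624 of 20506 features that were higher. In females alone 1 did, lower, beside 544 features that were lower. Klf2, a factor of lymphocyte quiescence and trafficking, was at -0.19 ± 0.07 (SE) in the mean of the sexes, with -0.06 ± 0.10 in males and -0.33 ± 0.10 in females. The difference between the sexes had an unadjusted p of 0.0705 (limma, adjusted p 0.938). In the list of glucose and amino acid entry 0 of 11 genes reached an unadjusted p under 0.05. The smallest p there belonged to the hexokinase Hk3 (0.07 ± 0.04) and the transporter Slc2a8 (-0.06 ± 0.05).

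No pair of members had a correlation between pups of a group that passed the test. Over the 36 pairs of the 9 members, Pearson's r ran from -0.43 to 0.43, and the smallest permutation adjusted p was 0.668. Over 81 relations of members with marker lists none passed (smallest permutation adjusted p 0.066). Besides Akt2 with T cell genes, the smallest adjusted p belonged to Irs2 with neutrophil genes (r -0.67, rho -0.64, permutation adjusted p 0.066 and 0.153, r -0.52 without the 2 farthest arrays and -0.56 with slides removed) and Rps6kb1 with dendritic cell genes, a list with only 3 kept (r -0.61, rho -0.60, permutation adjusted p 0.070 and 0.153, r -0.53 and -0.73 in the same order).

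The named genes whose deviations from the group means followed each member most closely were found among 10011 over the 23 arrays, and as the highest of so many they carry no p. For Irs2 they were Arih2 (Pearson's r 0.94) and Pdp1 (0.92), for Akt1 Hip1r and Nbeal2 (both 0.91), and for Igf2r Ptprf (0.88) and Pip4p1 (0.83). For Akt2 they were Gnl1 (0.84) and RT1-CE7 (0.80), for Rps6kb1 Cnih4 (0.84) and Pptc7 (0.83), and for Eif4ebp1 Scarb1 (0.83) and Bmf (0.78). The lowest were those of Insr (Vamp1 0.76, Trps1 0.72), Igf1r (Myl6b 0.75, Ptar1 0.72) and Prkaa1 (Herpud1 0.73, Smad4 0.72). The points share the pool, the slides and the cell mixture of each pup.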

How the data were processed

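RNA of 23 pups was hybridised to 2-colour Agilent arrays (design 014879). The authors read the spots with Agilent Feature Extraction 10.5.1.1 (source: the submitters' processing notes and headers). Per the file headers, intensity values are as scanned, with no normalization. Per the file headers, the log10 ratio was corrected by that software. Per the file headers, flags and names make up the other columns used. The authors' deposited table of log2 levels (column medians 7.23, method not given in the sources used here) served as an alternative.

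Intensities were corrected with normexp (offset 50), normalized by loess within arrays and expressed as log2(Cy5/Cy3). Spots flagged as outliers were set to missing. Probes were kept when well above background on at least 50% of arrays of 1 group (23693 of 41012). The kept probe with the highest mean intensity stood for a gene. Names came from the RefSeq table of GRCr8 by accession (11150 probes) or symbol (8553), 2758 kept the file's name and 18551 had none. Tests used limma 3.58.1 (R 4.3.3) on the 4 group means of 20506 features (moderated variance, Benjamini-Hochberg adjustment over all features, called at 0.05), checked on simulated data. Correlations used 100000 two-sided permutations within groups. The members and lists were chosen with earlier results of these data known. Named were the members, the 2 other genes of each list with the smallest p for the mean of the sexes, and the 2 genes most correlated with each member. Of these, 1 is not reported here. Alternatives were slide and replicate blocks, other normalizations, filters, probes and weights, and leaving out arrays.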

Additional observations from a re-analysis of the deposited data

Results flagged for a closer look

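Among 52 checks of a group for a pup far from the others (by its gap to the nearest pup over the range of the group), 2 were positive, where chance gives about 1 in 20. Insr in control female replicate 1 was at 0.302, with the other 5 control females between 0.026 and 0.051. The probe was near background. The dim Irs2 probe A_44_P257518 in CR female replicate 1 was at 0.302, and the next CR female was at 0.091. Both pups were on slide 1.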

How the results depend on the processing

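Over 12 other settings and the 23 fits without 1 array, 0 members were called in any of the 5 contrasts. The count of features called in males was 1 with the replicate block and 0 to 4 without 1 array (4 without CR male replicate 2). For the mean of the sexes it was 2 with array quality weights and 0 to 3 without 1 array (3 without CR male replicate 2, 1 without CR female replicate 1). Between the sexes it was 6 with probes above background on all arrays. Same-numbered arrays had an r of -0.42 to 0.46 (median 0.083, 14 of 33 pairs over 0.1), against a median of -0.025 for different numbers. Of the 23 arrays, 5 were closest to their own number. The labels do not say whether the replicate block is a pairing, and these values do not settle it. Under that block Akt2 in males, and Akt1 and Akt2 in the mean of the sexes, had an unadjusted p under 0.05. Median centring gave 4 members in the mean (Akt1, Akt2, Igf2r and Eif4ebp1) beside 3652 features, with 0 called.

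Counting each difference once per setting, 34 turned sign, none of them called, beside 1535 that stayed the same and 12 that moved. Median centring moved the median of all features to -0.19 in males and -0.10 in the mean of the sexes, and the medians of the 8 lists to between -0.24 and -0.05. It gave Igf1r -0.195 in males and -0.088 in the mean, and Prkaa1 -0.030 and Rps6kb1 -0.182 in the mean. In males, Insr was 0.012 with slides as a block, and Irs2 0.012 and 0.056 by probes A_44_P400393 and A_44_P503503. Rps6kb1 in males was 0.148 with Cy5 alone, 0.0091 in the deposited table and 0.016 without the 2 arrays that stand apart (an alternative chosen after seeing the data). In females, Irs2 was -0.064, -0.043 and -0.099 by its 3 dim probes, and Akt2 0.0080 with scale normalization and 0.026 in the deposited table. Prkaa1 in females was 0.036 with Cy5 alone, and Eif4ebp1 0.0078 with scale normalization and 0.0016 with Cy5 alone. In the mean of the sexes, Irs2 was 0.018 with slides as a block, 0.024 with scale normalization, 0.011 with the scanner's ratio, 0.012 with Cy5 alone and 0.013 in the deposited table. Igf2r was 0.0061 there without the 2 arrays that stand apart. Without 1 array Igf1r in males ran from -0.034 to 0.055, Rps6kb1 in males from -0.071 to 0.016, Akt2 in females from -0.077 to 0.018 and Irs2 in the mean from -0.093 to 0.032. The causes were not tested. Akt1 was negative in both sexes and in their mean under every setting run (-0.43 to -0.16 for the mean). Its unadjusted p for the mean was 0.0535 without the 2 arrays that stand apart (limma) and under 0.05 in the other fits. Signal over background limits Insr and the 3 dim probes of Irs2, and left Lepr untested.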
